A study of Mus musculus with 18 samples.

Results

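Cells of clone C2 sampled 18 days after tamoxifen were compared with cells of the same clone sampled 5 days after tamoxifen. The comparison used the 2 arrays titled day 18 and the 2 titled day 5, which are 4 of the 18 arrays analysed here. It took every gene that has a probe set annotated to that gene alone. Clone C2 is 1 clone, obtained by limiting dilution from immortalized male mouse embryonic fibroblasts (iMEFs) that were transformed with a retroviral human c-MYC and carry 1 floxed and 1 deleted allele of Ezh2 together with a tamoxifen-inducible Cre (Ezh2 flox/Δ; ROSA26-CreERT2). The cells came from mid-gestation embryos and were grown in DMEM with serum. Both groups had received tamoxifen (4-hydroxytamoxifen in the methods) and carried the Cre and the c-MYC transgene. The day 5 cells were nearer in time to the drug, and no group here had tamoxifen without the floxed allele. Any passing effect of the drug or of Cre activity, time since the deletion and time in culture cannot be told apart. The other groups named below are vehicle (ethanol) and day 32 of the same time course, again with 2 arrays each. The vehicle arrays have no day in their labels. Ezh2 null and control cells, with 2 arrays each, come from a separate rescue experiment in the same clone. The study calls undeleted cells wild type for Ezh2, although the clone has 1 deleted allele.

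Ezh2 is a catalytic subunit of Polycomb repressive complex 2 (PRC2), which methylates histone H3 on lysine 27 and holds many developmental genes silent. The H3K27me3 mark is diluted and removed over cell divisions once the enzyme is gone, and the study describes it as only partly depleted at day 5. In fibroblasts PRC2 targets include Hox genes and other regulators of embryonic patterning, and Ezh1 is a second enzyme that can occupy the complex. The comparison asks which transcripts differ between early and late times after the deletion.

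Expression was read on Affymetrix Mouse Gene 1.1 ST arrays, and all levels are log2 values after robust multi-array averaging (RMA), so that a difference of 1 is a 2-fold change. No read depth applies to arrays, and the number of arrays (n = 2 per group) limits the precision. Replicate arrays of a time course group correlated across genes at 0.9979 to 0.9985. No label says that the replicates came from separate cultures, so each p-value reflects no more than the scatter of these arrays, and that scatter may be technical. In place of detection calls, the 95th percentile of 1157 olfactory and vomeronasal receptor genes, between 3.82 and 4.01 on the 8 arrays of the time course, was taken as a signal floor. Of 10 fibroblast markers at least 9 lay above the floor on each array, and of 9 epithelial markers 5 did. In the test of day 18 against day 5, 0 of the 9 epithelial markers passed in either direction. Of other markers, 2 of 7 endothelial (Tek at −1.55, Pecam1 at −0.50), 2 of 7 adipocyte (Pparg at −1.48, Fabp4 at −0.47), 2 of 6 smooth muscle (Acta2 at −0.55, Cnn1 at −0.47) and 2 of 7 pluripotency genes (Klf4 at −0.91, Nanog at −0.46) fell. In turn, 2 of 8 skeletal muscle (Des at 0.84, Tnnt3 at 0.43), 2 of 8 neuronal (Syt1 at 0.72, Map2 at 0.46) and 1 of 8 blood and macrophage genes (Lyz2 at 1.27) rose, and 0 of 7 germline genes passed. Of all genes 15.6% rose and 16.1% fell in the same test, and the medians of these other lists lay between −0.24 (smooth muscle) and 0.08 (neuronal). With so few genes per list, the counts are not read as a change of cell type. Errors are standard errors of the log2 difference, and adjusted p-values are Benjamini-Hochberg values over 18820 genes from limma.

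The probe set of the deleted gene does not check the deletion. Ezh2 read 9.80 and 9.63 at day 18 and 9.29 and 9.19 at day 5, and the difference was 0.48 ± 0.0838 (adjusted p = 0.00187). The probe set was therefore higher on both day 18 arrays, and in Ezh2 null cells of the rescue experiment (10.46 and 10.48) it lay within the range of control cells (10.36 and 10.56). Ezh1 read 8.51 and 8.44 at day 18 and 9.31 and 9.39 at day 5, a fall of 0.88 ± 0.0767 on the log2 scale (adjusted p = 2.4e-05). The labels of the time course give only the tamoxifen treatment. That the cells were deleted is taken from the study, which followed Ezh2 and H3K27me3 by Western blot after the treatment.

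At day 18, 494 genes were called higher (2.62% of those tested) and 384 lower (2.04%) than at day 5, with a call set at 2-fold and an adjusted p under 0.05. Each gene that differed by 2-fold also passed the test. At any fold, 2929 genes rose (15.6%) and 3029 fell (16.1%), and the median of all genes was −0.02. Counts of risers and fallers in each list below are to be set against these shares. Changes of at least 4-fold were found in 69 of the genes called higher and 59 of those called lower, and changes of at least 8-fold in 22 and 13. For 76 of the genes called higher, both day 5 arrays lay under the signal floor, and for 26 of those called lower both day 18 arrays did, so that a fold change of such a gene says how far it rose above or fell to the floor.

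**Figure D1:**
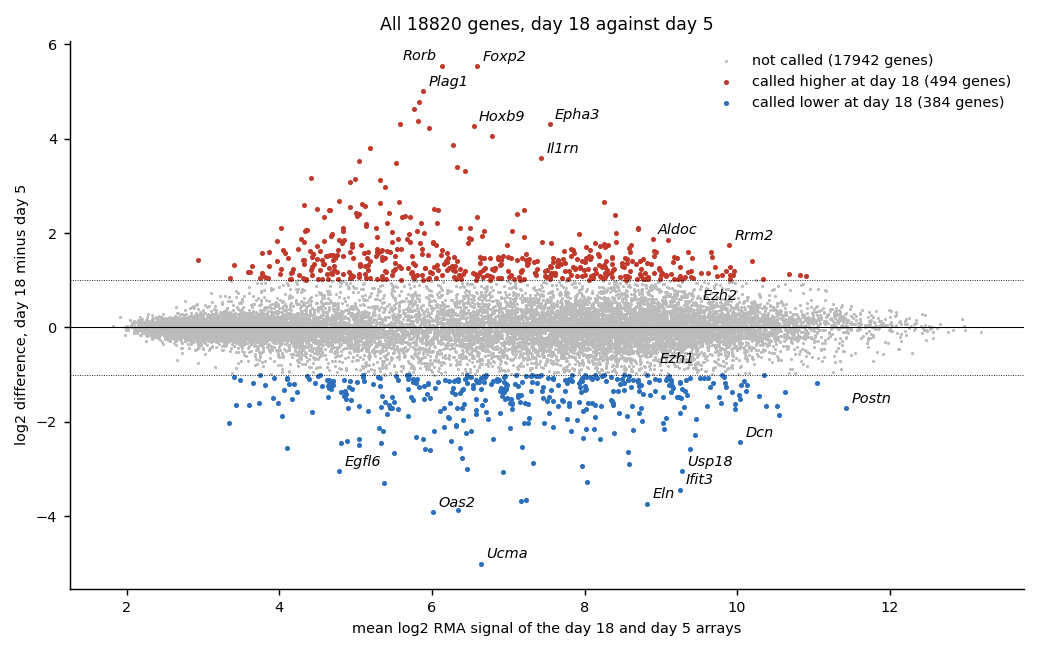
Log2 difference, day 18 minus day 5 (y axis), against the mean log2 RMA signal of the 4 arrays (x axis), with 1 point for each of 18820 genes. Red points are the 494 genes called higher at day 18, blue points the 384 called lower, and dotted lines mark 2-fold. Rorb, Foxp2 and Plag1 stand highest, with differences of 5.55, 5.54 and 5.01, and Ucma lowest, at −5.01.

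The largest rises were transcription factor genes that were at the floor at day 5. Rorb, which encodes an orphan nuclear receptor known from retina and cortex, read 8.96 and 8.85 at day 18 and 3.59 and 3.13 at day 5, a 46.8-fold rise (5.55 ± 0.146, adjusted p = 2.99e-08). Foxp2, a forkhead factor known for its part in vocal motor circuits, read 9.28 and 9.44 at day 18 and 3.75 and 3.90 at day 5 (5.54 ± 0.137, adjusted p = 2.46e-08). Plag1, a zinc finger factor of fetal growth, read 8.36 and 8.41 at day 18 and 3.43 and 3.32 at day 5 (5.01 ± 0.0975, adjusted p = 1.33e-08). In each of these the day 18 and day 5 arrays were far apart, and the day 5 arrays were as low as the vehicle arrays, whose means were 3.05 for Rorb, 3.61 for Foxp2 and 3.45 for Plag1. Chchd7, which lies next to Plag1 and was singled out after its values were seen, read 9.69 and 9.82 at day 18 and 7.72 and 7.57 at day 5 (2.12 ± 0.088, adjusted p = 3.34e-07).

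Other genes among the 20 largest rises act at the cell surface or in signalling. Efna5, an ephrin ligand anchored in the membrane, read 8.16 and 8.29 at day 18 and 3.28 and 3.61 at day 5 (4.78 ± 0.111, adjusted p = 2.46e-08). Epha3, a receptor for such ephrins, started higher, at 9.68 and 9.71 at day 18 against 5.26 and 5.52 at day 5 (4.31 ± 0.158, adjusted p = 1.77e-07). The ligand and the receptor gene thus rose on the same arrays. Gpc3, an X-linked glypican that binds growth factors, read 8.15 and 8.28 at day 18 and 4.29 and 4.40 at day 5 (3.87 ± 0.0971), and its level at day 32 was between the others, with a mean of 6.45. The adhesion molecule gene Alcam rose by 3.32, the protocadherin gene Pcdh9 by 3.48, the ubiquitin ligase gene Rnf128 by 4.64 and Chn1, which encodes a Rac GTPase-activating protein, by 3.53. Itm2a, which encodes a small transmembrane protein, rose by 3.81.

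Further genes of this set encode enzymes and RNA-binding proteins. Cpa6, a secreted carboxypeptidase gene that the study followed in single cells, read 7.91 and 8.12 at day 18 and 3.46 and 3.81 at day 5 (4.38 ± 0.125, adjusted p = 4.07e-08). Igf2bp3, an oncofetal protein that binds messenger RNA, read 8.06 and 8.08 at day 18 and 3.98 and 3.72 at day 5 (4.22 ± 0.118). The retinaldehyde dehydrogenase gene Aldh1a1 (8.77 and 8.86 at day 18, 4.81 and 4.72 at day 5) and its paralog and neighbour Aldh1a7 (7.69 and 7.78 at day 18, 3.47 and 3.39 at day 5) rose together, but the sequences are near-identical and probes can be shared between them. Il1rn, which encodes the antagonist of the interleukin-1 receptor, differed from the others in its course. It read 9.22 and 9.23 at day 18 and 5.57 and 5.72 at day 5, while the vehicle arrays lay between, at 7.57 and 7.15. The microtubule-severing gene Fign rose by 3.16 and the AP-2 factor gene Tfap2b by 3.15. Of these 20 genes, 11 had both day 5 arrays under the floor.

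**Figure D2:**
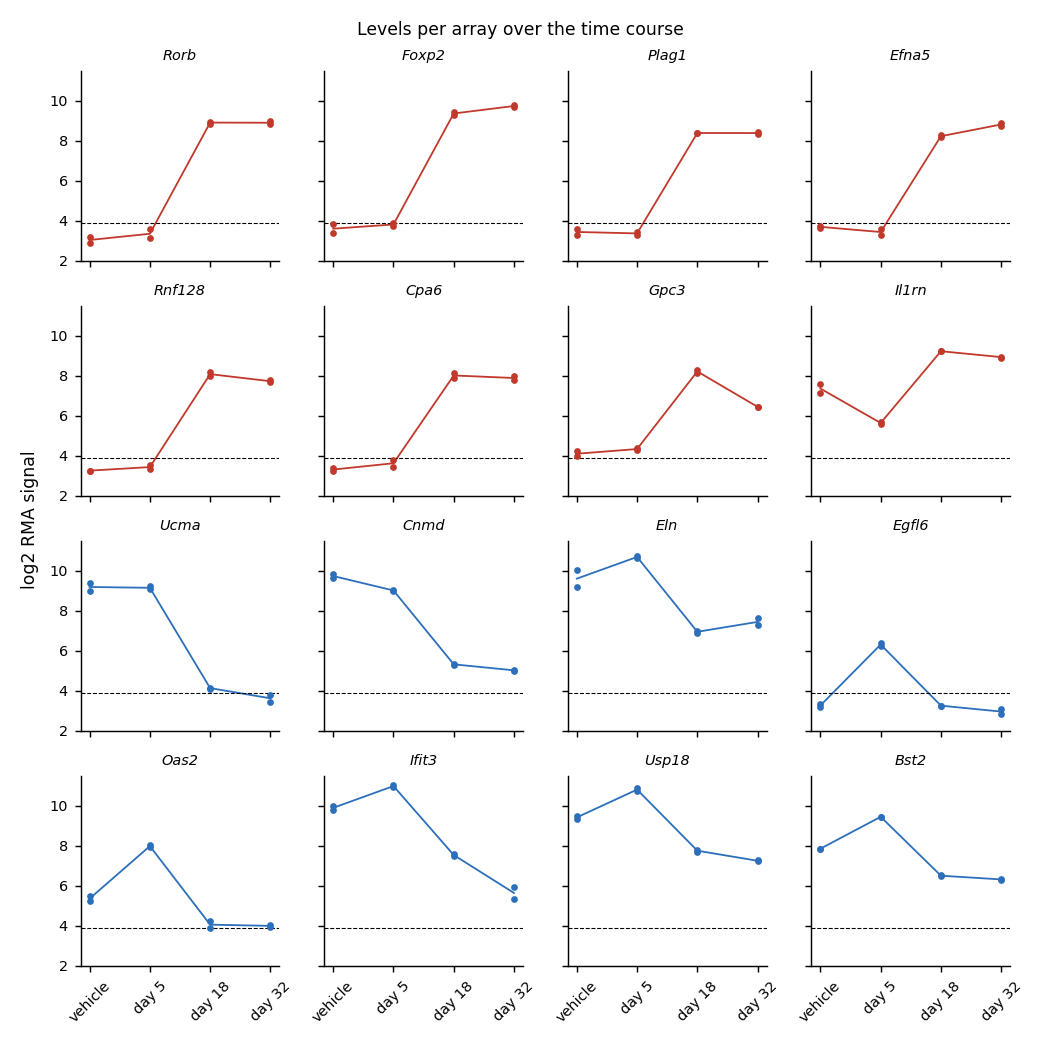
Levels of 16 genes as log2 RMA signal (y axis) in vehicle, day 5, day 18 and day 32 arrays (x axis). Each point is an array, lines join group means and the dashed line is the median signal floor; genes in red rose and genes in blue fell at day 18 relative to day 5, Rorb, Foxp2, Plag1, Efna5, Rnf128 and Cpa6 sit at the floor in vehicle and at day 5, while Egfl6 is high at day 5 alone and the antiviral genes Oas2, Ifit3, Usp18 and Bst2 peak at day 5.

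Regulators of embryonic patterning, the class that PRC2 is best known for silencing, had more risers than fallers. Of 145 measured developmental transcription factor genes 45 rose (31.0%, against 15.6% of all genes), 12 fell (8.28%, against 16.1%) and the others did not pass, with a median difference of 0.10 against −0.02 for all genes. Foxf1, a forkhead factor of lung and gut mesenchyme, read 8.06 and 7.99 at day 18 and 4.54 and 4.72 at day 5 (3.39 ± 0.0856, adjusted p = 2.46e-08). Prdm6, a smooth muscle regulator, rose by 1.97. Of 36 Hox genes 12 rose (33.3%) and 5 fell (13.9%), with a median of 0.17. The risers among them were led by Hoxb9 (8.60 and 8.75 at day 18, 4.31 and 4.52 at day 5), a factor of the thoracic region, and Hoxb13 (6.78 and 6.98 at day 18, 3.64 and 3.87 at day 5), a posterior factor. Hoxb5 rose by 2.64, Hoxa10 by 1.57 and Hoxc9 by 1.11, and the lowest Hox gene differed by −0.65. The Hoxa and Hoxc clusters held genes of both kinds. Leaving out any 1 of the 4 arrays lowered the counts of both risers and fallers among the developmental factors. It also lowered the Hox fallers and moved the count of Hox risers, so these counts are approximate.

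Members of the Polycomb complexes differed by smaller amounts. Of 12 PRC2 subunit genes 6 rose and 1, Ezh1, fell, with a median of 0.26, or 0.17 with the mean of all probe sets of a gene. Phf19, an accessory subunit that reads H3K36 methylation, read 7.02 and 7.05 at day 18 and 5.60 and 5.50 at day 5 (1.49 ± 0.0847, adjusted p = 1.87e-06). The core subunit gene Suz12 rose by 0.36 and the histone chaperone gene Rbbp7 by 0.33. Of 19 PRC1 subunit genes 5 rose (26.3%) and 2 fell (10.5%), with a median of 0.03. The risers included the chromodomain gene Cbx2 at 0.96 and Bmi1 at 0.56, and the fallers were Phc3 at −0.76 and Cbx7 at −0.48. Cdkn2a, the Polycomb-controlled locus of the p16 and p19 tumour suppressors, read 7.29 and 7.07 at day 18 and 6.94 and 6.84 at day 5 (0.29 ± 0.0891, adjusted p = 0.0353), a call that was lost in the fit to the 4 arrays alone (adjusted p = 0.0683), with median centring (0.0578) and without day 18 replicate 1 (0.253), day 5 replicate 1 (0.0614) or day 5 replicate 2 (0.179). The difference lay between 0.17 and 0.34 in these fits. Cdkn1a, which encodes p21, read 6.16 and 6.11 at day 18 and 6.13 and 6.10 at day 5, a difference of 0.03 ± 0.0747 (adjusted p = 0.852), against a vehicle mean of 5.11. Of 22 enzyme genes that oppose PRC2 or set DNA methylation 6 rose (27.3%, against 15.6% of all genes) and 5 fell (22.7%, against 16.1%). Their median was 0.0001, with the maintenance DNA methyltransferase gene Dnmt1 at 0.92, the H3K36 methyltransferase gene Nsd2 at 0.81 and the H3K27 demethylase gene Kdm6b at −0.69. Leaving out any 1 of the 4 arrays lowered the counts of these 22 genes in both directions, and the count of PRC2 risers. The count of PRC1 risers was lowered too, unless day 5 replicate 1 was the array left out.

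Genes of the cell cycle were higher at day 18 with few exceptions. All 43 measured DNA replication genes rose (100.0% against 15.6% of all genes), with a median of 0.96 and a range of 0.38 to 1.80. Gins1, a subunit of the replicative helicase, read 8.34 and 8.35 at day 18 and 6.48 and 6.60 at day 5 (1.80 ± 0.0852, adjusted p = 6.62e-07). Rrm2, the regulated subunit of ribonucleotide reductase, read 10.75 and 10.78 at day 18 and 8.92 and 9.13 at day 5 (1.74 ± 0.0898, adjusted p = 1.08e-06). Thymidine kinase Tk1 rose by 1.61, the DNA ligase gene Lig1 by 1.51 and Uhrf1, which guides DNA methylation at replication forks, by 1.37. Of 55 mitosis genes 53 rose, with a median of 1.20. Pbk, a mitotic kinase, read 8.51 and 8.56 at day 18 and 6.92 and 6.93 at day 5 (1.61 ± 0.0755). Cdca3 rose by 1.61, the survivin gene Birc5 by 1.52, the spindle checkpoint gene Mad2l1 by 1.50 and the condensin gene Ncapd2 by 1.38. The other members were Pttg1, the securin gene, which fell by 0.60 ± 0.0924 (adjusted p = 0.000825), and Smc4 at 0.22 (adjusted p = 0.0693). Of 20 genes of Fanconi repair and homologous recombination 19 rose (median 0.85), led by Fancb at 1.48, Rad54l at 1.39, Fancd2 at 1.36, Eme1 at 1.32 and Exo1 at 1.23. The median level of the mitosis genes was 9.51 at day 18 and 8.27 at day 5, against 8.70 on the vehicle arrays and 9.54 at day 32, so the day 5 arrays were the lowest of the 4 groups. In bulk samples fewer cycling cells and less RNA per cell cannot be told apart.

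The E2F site is the promoter element through which E2F factors switch on genes for S phase, and 2 of its forms, TTTCGCGC and TTTGGCGC, were searched on both strands of 300-base promoter windows (250 bases before to 50 after the start) from RefSeq, build GRCm38.p6. The forms can overlap each other on opposite strands. At least 1 match lay in 12 of 35 DNA replication genes with a promoter in the table (34.3%), in 4 of 47 mitosis genes (8.51%) and in 194 of 14749 genes tested (1.32%). Among the genes called higher it was 14 of 375 (3.73%) and among those called lower 2 of 269 (0.743%). Both forms hold at least 1 CG pair (CpG). The median number of CpG per promoter was 21 in genes called higher and 11 in those called lower. It was 17 in all genes tested and 24 in the DNA replication genes. The part of base composition in these shares was not tested. The windows below, 80 bases long and upstream of the start, are shown because each holds a match, in capitals, in a gene that rose.
Mcm5, chr8:75109322-75109401 (+), a subunit of the replicative helicase that rose by 1.11: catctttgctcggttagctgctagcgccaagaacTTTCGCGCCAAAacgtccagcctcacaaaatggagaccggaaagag
Mcm6, chr1:128359741-128359820 (−), another helicase subunit that rose by 0.88: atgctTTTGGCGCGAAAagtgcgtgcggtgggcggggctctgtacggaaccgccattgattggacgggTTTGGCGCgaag
Uhrf1, chr17:56304092-56304171 (+): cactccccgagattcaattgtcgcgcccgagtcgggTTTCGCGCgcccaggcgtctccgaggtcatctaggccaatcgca
Cdk1, chr10:69353000-69353079 (−), the mitotic kinase, which rose by 1.11: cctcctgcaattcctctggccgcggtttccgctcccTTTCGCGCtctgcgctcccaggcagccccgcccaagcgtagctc
Mcm5, Mcm6 and Cdk1 were taken for their match and not for their difference. A match is a description of the letters and not of binding.

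Genes of the cell cycle brakes moved less uniformly. Of 10 genes of CDK inhibitors and the retinoblastoma family 4 rose and 2 fell. Rbl1, the pocket protein p107, rose by 0.93, Cdkn2d by 0.97 and Cdkn2c by 0.60, whereas Cdkn2b fell by 0.71 and Rbl2, the pocket protein p130, by 0.62. Of 28 p53 target genes 3 rose (10.7%, against 15.6% of all genes) and 7 fell (against 16.1%), with a median of −0.09 that became −0.20 without the dimmest 30% of genes. Trp53inp1 read 7.83 and 7.80 at day 18 and 9.61 and 9.64 at day 5 (−1.81 ± 0.0682, adjusted p = 1.94e-07), and Btg2, an antiproliferative gene, fell by 1.82, whereas the spindle gene Psrc1 rose by 1.35. Among 49 genes that Myc activates or that build ribosomes, 20 rose and 0 fell (median 0.20), with Cad, which starts pyrimidine synthesis, at 0.79 and Tcof1 at 0.62. The count of 20 was 12 without day 18 replicate 1, 13 without day 18 replicate 2, 11 without day 5 replicate 1 and 16 without day 5 replicate 2. Among families picked after their values were seen, 33 of 46 genes of the large subunit of the mitochondrial ribosome, 21 of 39 proteasome genes and 18 of 35 complex I genes rose (71.7%, 53.8% and 51.4%, against 15.6% of all genes), with 0 falling in each. Other families picked in this way went down, with 4 of 5 Ypel and 5 of 5 Adamtsl genes falling. The choice followed the values, so these counts describe the families and are not a test.

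**Figure D3:**
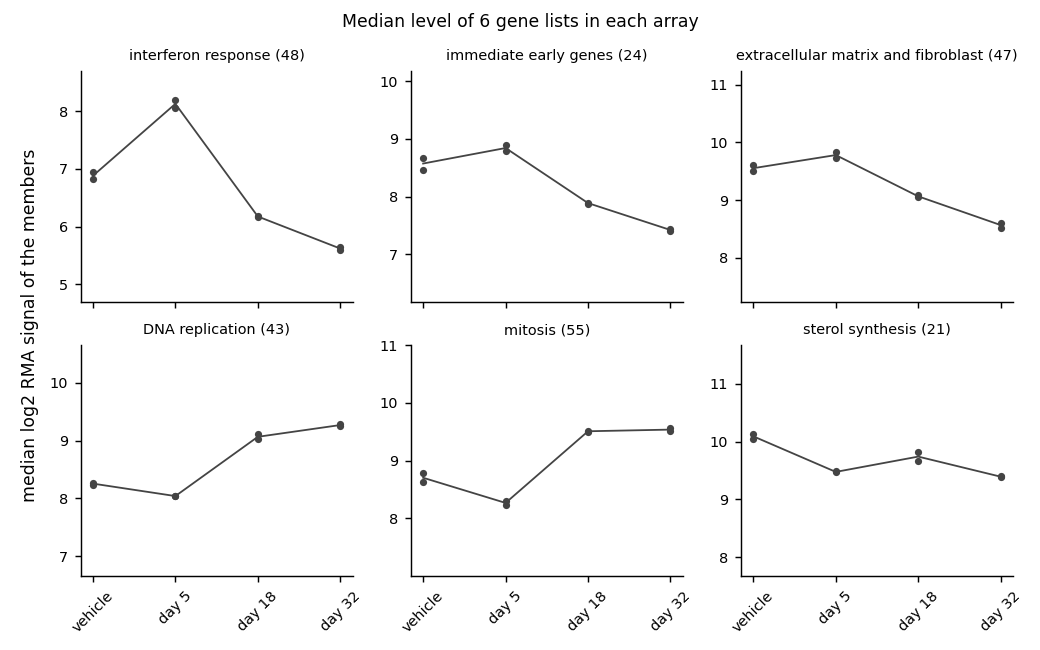
Median log2 RMA signal over the members of 6 gene lists (y axis, number measured in brackets) against group (x axis), where points are arrays and lines join group means. The interferon list is highest at day 5 (8.13) and lies below vehicle (6.88) at day 18 (6.18), and the mitosis list is lowest at day 5 (8.27) and lies above vehicle (8.70) at day 18 (9.51).

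The interferon response was the group that fell most. Interferons are secreted signals that switch on antiviral genes. Of 48 measured genes 43 fell and 0 rose (89.6% fell, against 16.1% of all genes), with a median of −1.79, and 9 of the 20 largest falls were on this list. Oas2, an enzyme that senses double-stranded RNA and activates RNase L, read 4.22 and 3.90 at day 18 and 7.94 and 8.02 at day 5 (−3.92 ± 0.123, adjusted p = 6.74e-08). Ifit3, which binds foreign RNA with its partners, read 7.60 and 7.46 at day 18 and 11.03 and 10.92 at day 5 (−3.44 ± 0.177, adjusted p = 1.07e-06). Usp18, which removes ISG15 from proteins and dampens the interferon receptor, read 7.70 and 7.80 at day 18 and 10.86 and 10.74 at day 5 (−3.05 ± 0.0834). Day 18 and day 5 arrays did not overlap for any of these. Bst2, which tethers budding virus, fell by 2.94, the oligoadenylate synthetase-like gene Oasl2 by 2.89, the DNA sensor family gene Ifi203 by 2.88, Isg15 by 2.65, Trim30a by 2.58 and Xaf1 by 2.20. Ifit3b fell by 3.31, but it is a near copy of Ifit3 and the probes can be shared. The 5 genes that did not pass were Cmpk2, Epsti1, Ifi44l, Ifitm3 and Trim25, with differences between −0.20 and 0.15.

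The fall ran past the level of the vehicle arrays, whose day of sampling is not labelled. The median of the interferon list was 6.18 at day 18 and 8.13 at day 5, against 6.88 on the vehicle arrays and 5.62 at day 32. Usp18, for example, read 9.48 and 9.35 on the vehicle arrays and 7.28 and 7.22 at day 32. Among interferon-induced GTPase genes, which are switched on by interferon gamma as well, 4 of 9 fell and 1 rose. Gbp7 read 6.63 on both day 18 arrays and 8.44 and 8.46 at day 5 (−1.82 ± 0.0732), and Irgm1 fell by 1.66, Gbp3 by 1.60 and Iigp1 by 1.35. The exception was Gbp2, at 6.51 and 6.57 at day 18 and 5.67 and 5.73 at day 5 (0.84 ± 0.137, adjusted p = 0.00117). Of 17 antigen presentation genes 8 fell and 1, the immunoproteasome gene Psmb9, rose by 0.69. The class I heavy chain gene H2-K1 fell by 1.27, its light chain gene B2m by 0.45, Tap2 by 0.68 and Tapbp by 0.60. Reads of H2-K1 can be mixed with other class I genes.

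The interferon-stimulated response element (ISRE), a promoter element of many interferon-induced genes, was searched as GAAANNGAAA on both strands of the same windows. At least 1 match lay in 17 of 36 interferon genes with a promoter in the table (47.2%), in 35 of 269 genes called lower (13.0%), in 13 of 375 called higher (3.47%) and in 576 of 14749 genes tested (3.91%). The median number of CpG per promoter was 6 in the interferon genes and 17 in all genes tested. The part of base composition in these shares was not tested either. The windows below are shown because each belongs to 1 of the 20 largest falls and holds a match, in capitals, upstream of the start.
Isg15, chr4:156200846-156200925 (−): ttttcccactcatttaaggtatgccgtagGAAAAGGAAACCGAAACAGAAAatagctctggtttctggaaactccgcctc
Bst2, chr8:71537555-71537634 (−): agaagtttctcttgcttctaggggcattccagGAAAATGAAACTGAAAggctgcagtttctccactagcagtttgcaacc
Ifi203, chr1:173942493-173942572 (−): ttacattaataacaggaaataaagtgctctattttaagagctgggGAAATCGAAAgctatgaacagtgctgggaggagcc
Ifit3, chr19:34583355-34583434 (+): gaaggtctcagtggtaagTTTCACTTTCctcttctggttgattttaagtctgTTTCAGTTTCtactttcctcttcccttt
The table gives Ifit3b the same 80 bases at another position of chromosome 19, so that the copies share this element as well as much of their coding sequence.

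Chemokine and early response genes fell with fewer members. Of 21 chemokine genes 13 fell (61.9%, against 16.1% of all genes) and 2 rose (9.52%, against 15.6%), with a median of −0.43. Cxcl9, which draws T cells, read 5.16 and 5.36 at day 18 and 7.20 and 7.15 at day 5 (−1.92 ± 0.0867), Ccl20 fell by 1.61 and Ccl5 by 1.13. Cxcl15 read 3.63 and 3.54 at day 18 and 6.03 and 6.03 at day 5 (−2.45 ± 0.114), with vehicle arrays at 3.54 and 3.75. The neutrophil attractant gene Cxcl5 went the other way, at 5.90 and 5.76 at day 18 and 4.22 and 3.92 at day 5 (1.76 ± 0.113). Of 24 immediate early genes 18 fell and 0 rose (median −0.62). Atf3, a stress-induced factor, read 8.47 and 8.53 at day 18 and 10.00 and 9.95 at day 5 (−1.47 ± 0.0825, adjusted p = 1.78e-06), and the nuclear receptor gene Nr4a1 fell by 1.22, Zfp36 by 1.17 and Klf2 by 0.92.

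Matrix genes fell in part. Among 47 genes of the matrix and of fibroblasts, 26 fell and 7 rose (median −0.36). Eln, which encodes elastin, read 7.00 and 6.90 at day 18 and 10.64 and 10.73 at day 5 (−3.73 ± 0.223, adjusted p = 2.39e-06). The small leucine-rich proteoglycan genes Dcn (8.82 and 8.83 at day 18, 11.23 and 11.28 at day 5) and Lum (5.13 and 5.05 at day 18, 7.54 and 7.76 at day 5), which bind collagen fibrils and lie side by side, fell by 2.43 and 2.56. Postn fell by 1.71, whereas the fibulin gene Fbln1 rose by 1.48 and the growth factor binding protein gene Igfbp5 by 2.35. Of 33 collagen genes 12 fell (36.4%, against 16.1% of all genes) and 2 rose (6.06%, against 15.6%). The fallers were led by Col28a1 at −2.08, Col8a1 at −1.88, Col3a1 at −1.11, Col11a1 at −0.94 and Col5a2 at −0.78. The fibrillar type III and V chains were among those that fell. Without day 18 replicate 2 the collagen genes that fell numbered 8, and without any 1 of the 4 arrays 1 rose. Edil3, a matrix ligand of integrins, fell by 3.28 and Angptl1 by 3.86. Of 30 protease and inhibitor genes 8 rose (26.7%) and 11 fell (36.7%), with Adamts6 at −1.90, Timp4 and Timp3 both at −1.20, Mmp2 at −0.94 and Timp2 at −0.87. The fibroblast markers as a list fell in 7 of 10 genes and rose in 1, and the log2 of their summed signal was 13.44 and 13.40 at day 18 against 13.99 and 13.97 at day 5. Postn and Col3a1 are on this marker list and are named above as well, so the marker list and the matrix lists share genes. The part of the marker fall in the matrix result was not tested.

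Cartilage genes held the largest single fall. Ucma, which encodes a small secreted protein of resting chondrocytes, read 4.16 and 4.11 at day 18 and 9.22 and 9.06 at day 5, a 32.1-fold fall to a level near the floor (−5.01 ± 0.141, adjusted p = 3.98e-08). Cnmd, which encodes chondromodulin, an inhibitor of vessel growth in cartilage, read 5.36 and 5.29 at day 18 and 9.03 and 8.99 at day 5 (−3.69 ± 0.0863, adjusted p = 2.46e-08). Both were at least as high on the vehicle arrays (means of 9.18 and 9.73) as at day 5. In all 16 of 32 cartilage and tendon genes fell, among them Fmod at −1.92 and Epyc at −1.60, and 1 rose, the phosphatase gene Alpl, at 6.56 and 6.40 at day 18 and 4.54 and 4.37 at day 5 (2.02 ± 0.146). Padi2, a protein arginine deiminase gene, fell by 3.65, Fam180a by 2.78, Ecrg4, which encodes a secreted peptide precursor, by 2.63, and the alcohol dehydrogenase gene Adh1 by 2.58.

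A few of the largest falls were of genes that were high at day 5 alone. Egfl6, an X-linked gene for a secreted protein with EGF repeats, read 3.26 and 3.27 at day 18 and 6.38 and 6.25 at day 5 (−3.05 ± 0.0983), and the vehicle arrays (3.35 and 3.19) were at the floor as well. Strip2 read 4.62 and 4.74 at day 18 and 7.34 and 7.20 at day 5 (−2.59 ± 0.102), against 4.79 and 4.87 on the vehicle arrays. In both genes the day 5 arrays stood apart from the day 18 and the vehicle arrays.

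**Figure D4:**
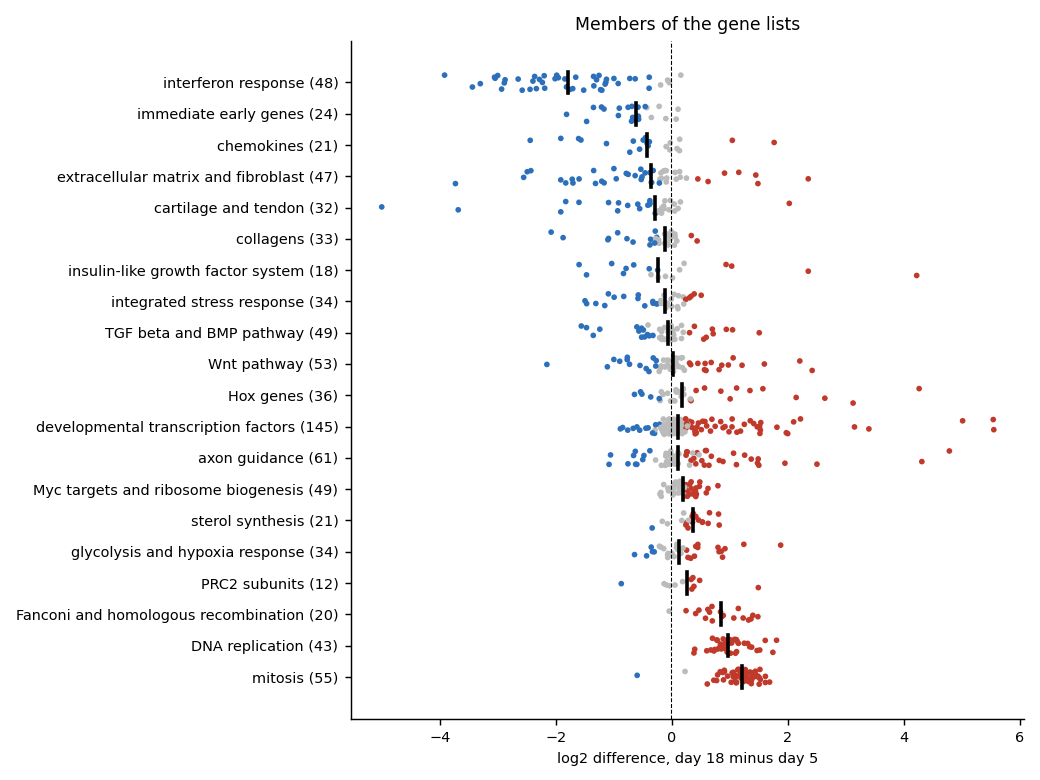
Log2 difference, day 18 minus day 5 (x axis), of the members of 20 gene lists (y axis, number measured in brackets), with 1 point per gene, red where it rose, blue where it fell and grey where it did not pass the test. Black bars are list medians and the dashed line the median of all genes (−0.02); the mitosis, replication and Fanconi lists lie almost wholly to the right, the interferon list to the left, and the developmental lists hold a long right tail around a median near 0.

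Guidance and signalling pathways had members in both directions. Of 61 axon guidance genes 26 rose (42.6%) and 10 fell (16.4%), with a median of 0.11. The semaphorin gene Sema3c at 1.95 and the netrin receptor gene Unc5a at 1.47 were among the risers and Sema3b at −1.06 among the fallers. Of 53 Wnt pathway genes 15 rose (28.3%) and 13 fell (24.5%). The secreted Wnt inhibitor genes Sfrp1 (6.07 and 6.37 at day 18, 3.84 and 3.77 at day 5) and Wif1 (6.85 and 7.06 at day 18, 4.59 and 4.91 at day 5) rose by 2.42 and 2.20, and the ligand gene Wnt5a by 1.21. Lgr5, the receptor for R-spondins, read 7.83 and 8.10 at day 18 and 10.08 and 10.17 at day 5 (−2.16 ± 0.137), and Fzd8 fell by 1.00. Of 49 TGF beta and BMP genes 9 rose (18.4%, against 15.6% of all genes) and 13 fell (26.5%, against 16.1%), with Bmp6 at −1.47, Ltbp1 at −1.56, Tgfb2 at −1.36 and Ltbp3 at −1.25, and Id4, an inhibitor of bHLH factors, at 1.50.

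Growth control by insulin-like growth factors was split as well. Of 18 genes 4 rose (22.2%) and 8 fell (44.4%), with a median of −0.24, and −0.36 without the dimmest 30% of genes. Besides Igf2bp3 and Igfbp5, the related Igf2bp1 rose by 1.03. The adaptor gene Irs1 read 9.01 and 9.05 at day 18 and 10.43 and 10.58 at day 5 (−1.47 ± 0.0885), Igfbp4 fell by 1.60, and the ligand gene Igf2 by 1.04. Among 42 imprinted genes 8 rose and 13 fell, with Plagl1, a zinc finger factor of the imprinted growth network, at 9.45 and 9.37 at day 18 and 7.41 and 7.42 at day 5 (2.00 ± 0.126), and Phlda2 at 1.17. Without 1 array the imprinted genes that rose numbered 4 (without day 5 replicate 2) to 6, and those that fell 8 (without day 18 replicate 2) to 12, and the growth factor genes that fell numbered 5 without day 18 replicate 2. Of 59 cadherin and protocadherin genes 8 rose (13.6%) and 10 fell (16.9%), close to the 15.6% and 16.1% of all genes, and the 8 were 5 without day 18 replicate 1 or day 5 replicate 1 and 4 without day 18 replicate 2. Pcdhb18 fell by 1.06, Pcdh10 by 0.84, Pcdhb17 by 0.81 and Fat4 by 0.79, in contrast to Pcdh9.

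Metabolic genes changed by smaller amounts. Of 21 sterol synthesis genes 15 rose and 1, Ggps1, fell (median 0.35), and 9 rose without day 18 replicate 2. Idi1 rose by 0.81, the cholesterol carrier gene Stard4 by 0.80, Fdps by 0.65, Mvk by 0.62 and Tm7sf2 by 0.52, and the list median was 9.74 at day 18 and 9.47 at day 5, against 10.09 on the vehicle arrays and 9.39 at day 32. Of 16 fatty acid genes 1 rose and 3 fell, each by less than 0.35, and 0 rose and 1 fell without day 18 replicate 1, day 18 replicate 2 or day 5 replicate 2. Of 34 glycolysis and hypoxia genes 14 rose (41.2%) and 5 fell (14.7%). Aldoc, an aldolase, read 9.91 and 9.75 at day 18 and 8.05 and 7.87 at day 5 (1.87 ± 0.11, adjusted p = 2.13e-06), with vehicle arrays still higher at 10.51 and 10.67, and Pfkl rose by 1.24, Tpi1 by 0.91, Car12 by 0.87 and Pgk1 by 0.81. Of 34 genes of the integrated stress response, which ATF4 controls, 5 rose (14.7%) and 14 fell (41.2%). Trib3 read 6.24 and 6.22 at day 18 and 7.67 and 7.80 at day 5 (−1.50 ± 0.138), and Chac1 fell by 1.31 and Nupr1 by 1.16. Among 19 oxidative stress genes 7 rose (36.8%) and 3 fell (15.8%), with Gsr at 0.93, Gclc at 0.55 and Hmox1 at −0.73. Of 18 chaperone genes of the endoplasmic reticulum 4 rose (22.2%) and 2 fell (11.1%), near the shares of all genes (15.6% and 16.1%). Several of these counts shrank when 1 array was left out. Glycolysis risers numbered 9 without day 18 replicate 1 or day 5 replicate 2, and the fallers 3 without these or day 18 replicate 2. Stress response risers numbered 1 without day 18 replicate 2 and 3 without any other array, oxidative stress risers 3 without day 5 replicate 1, and chaperone fallers 0 without any 1 of the 4.

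In prostaglandin synthesis 5 of 17 genes rose (29.4%, against 15.6% of all genes) and 1 fell (5.88%, against 16.1%). The neighbours Pla2g4a, the phospholipase that frees arachidonic acid (6.28 and 6.66 at day 18, 3.29 and 3.46 at day 5), and Ptgs2, the inducible cyclooxygenase (8.20 and 8.40 at day 18, 7.16 and 7.38 at day 5), rose by 3.09 and 1.03, along with the receptor gene Ptgfr by 1.40. Without day 18 replicate 2 or day 5 replicate 2 the count of 5 was 3. Of 24 retinoid genes 3 rose (12.5%) and 2 fell (8.33%), both shares below those of all genes, and beside the Aldh1a genes the retinol-binding protein gene Rbp4 rose by 1.11 and the reductase gene Dhrs3 fell by 2.11. Of 25 germline and testis genes 1, Rhox5 at 0.63, rose and 1, Slc25a31, which was under the floor on all 4 arrays, fell, and 2 or 3 fell when 1 of the 4 arrays was left out.

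MicroRNA genes, which the array reads as precursors or their host transcripts and not as mature microRNAs, mostly fell where they passed the test. They were looked at after their values were seen. Of 306 such genes 61 fell (19.9%, against 16.1% of all genes) and 10 rose (3.27%, against 15.6%). Of the 306, 158 lay under the floor on all 4 arrays, among them 8 of the 61 and 2 of the 10. The let-7 family holds back growth and fetal genes in many tissues, and 8 of 11 of its precursors fell, although 2 of the 8 lay under the signal floor on all 4 arrays. Mirlet7c-1 read 5.49 and 5.14 at day 18 and 6.88 and 7.14 at day 5 (−1.70 ± 0.156, adjusted p = 3.22e-05), with a vehicle mean of 5.96. Mirlet7i read 5.11 and 5.17 at day 18 and 6.53 and 6.80 at day 5 (−1.52 ± 0.102), and Mirlet7d fell by 1.31. The fetal RNA-binding protein genes Lin28a and Lin28b, which block let-7 maturation, lay under the floor in both groups. The mature sequences of these and of other families that fell are shown by shared seed (bases 2 to 8, in capitals), from RefSeq.
mmu-let-7c-5p: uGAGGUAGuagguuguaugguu
mmu-let-7i-5p: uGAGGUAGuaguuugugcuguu
mmu-let-7d-5p: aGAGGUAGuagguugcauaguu
mmu-miR-99a-5p: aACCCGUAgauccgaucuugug
mmu-miR-100-5p: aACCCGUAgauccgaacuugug
mmu-miR-125b-5p: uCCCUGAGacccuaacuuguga
mmu-miR-27a-3p: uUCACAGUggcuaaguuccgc
mmu-miR-27b-3p: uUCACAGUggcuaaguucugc
mmu-miR-181b-5p: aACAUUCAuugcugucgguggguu
The 3 let-7 members share the seed GAGGUAG, miR-99a and miR-100 the seed ACCCGUA, and both miR-27 forms the seed UCACAGU.

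Several of these precursors lie in shared transcripts. Mir99a (7.48 and 7.11 at day 18, 8.97 and 8.84 at day 5) lies next to Mirlet7c-1 on chromosome 16 and fell by 1.61. The neighbours Mir23a, Mir27a and Mir24-2 on chromosome 8 fell by 1.71, 1.53 and 1.49, and their paralogs Mir23b, Mir27b and Mir24-1 on chromosome 13 by 1.05, 1.37 and 1.26. Members of 1 transcript are not independent. Mir181b-1 fell by 1.75, Mir125b-1 by 1.18 and Mir100 by 0.63, and the last of these and Mir125b-1 were close to or under the floor at day 18. The strongest rise was of Mir675, which lies inside the imprinted H19 transcript, at 6.99 and 6.83 at day 18 and 5.10 and 5.14 at day 5 (1.79 ± 0.123, adjusted p = 5.36e-06). Mir25 rose by 0.73 and Mir19a, of the Myc-driven Mir17 cluster, by 0.62.

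Median differences by chromosome lay between −0.07 (Y, 15 genes) and 0.02 (X, 719 genes). Of the X-linked genes 34 were called higher (4.73%, against 2.62% of all genes) and 10 lower (1.39%, against 2.04%). The share called higher was near this on chromosome 10 (38 of 874, 4.35%), so it was not particular to X.

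The rescue experiment measured the deletion on other arrays, in Ezh2 null cells and control cells, and shares no array with the time course. The contrasts are unlike, since day 18 and day 5 cells had both received tamoxifen, whereas control cells were those that the study calls wild type. It was normalized separately, so levels are not set across the experiments. In it 227 genes were higher (1.21%) and 143 lower (0.76%) in Ezh2 null cells at any fold. Of the 494 genes called higher at day 18, 113 were also higher in Ezh2 null cells (22.9% of the 494, and 49.8% of the 227) and 1 was lower. Of the 384 called lower, 41 were also lower (10.7% of the 384, and 28.7% of the 143) and 7 were higher. The median difference, Ezh2 null minus control, was 0.37 over the first set and −0.14 over the second, against −0.03 over all genes. The count of 113 lay between 78 (without Ezh2 null replicate 2) and 134, and the count of 41 was 22 without Ezh2 null replicate 2, 27 without control replicate 2, 64 without Ezh2 null replicate 1 and 91 without control replicate 1.

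Among the 20 largest rises, 13 passed the test as higher in Ezh2 null cells, against 1.21% of all genes. Rorb read 8.94 and 9.06 in Ezh2 null cells and 4.76 and 4.42 in control cells (4.41 ± 0.346, adjusted p = 0.00215), Plag1 read 9.54 and 9.31 in Ezh2 null cells and 5.07 and 5.11 in control cells (4.33 ± 0.254, adjusted p = 0.00112) and Foxp2 read 9.83 and 9.91 in Ezh2 null cells and 5.44 and 4.89 in control cells (4.70 ± 0.657, adjusted p = 0.0167). For Aldh1a7 the null arrays disagreed, at 9.53 and 6.37 in Ezh2 null cells against 4.72 and 5.13 in control cells, and the gene did not pass (adjusted p = 0.265). The null arrays also lay apart for the other risers that did not pass, Aldh1a1 (9.95 and 6.90), Gpc3 (9.78 and 6.88), Efna5 (6.19 and 8.20), Il1rn (8.08 and 6.61), Fign (5.64 and 7.27) and Tfap2b (5.50 and 7.22). Some risers that passed had such a gap as well, for example Hoxb9 (7.99 and 9.42). Among the 20 largest falls 5 passed as lower, against 0.76% of all genes. They were Ucma (5.53 and 7.25 in Ezh2 null cells, 9.06 and 9.26 in control cells), Eln, Cnmd, Edil3 and Fam180a. None of the 9 interferon genes was among these 5.

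The interferon and cell cycle genes differed between the experiments in their counts. The rescue experiment has no group labelled as early after tamoxifen, so it cannot show a peak or dip at day 5. Of the 48 interferon genes 2 were higher and 0 lower in Ezh2 null cells (median 0.24), and of the 43 replication and 55 mitosis genes 0 passed in either direction (medians 0.07 and 0.17). Oas2 read 8.32 and 6.99 in Ezh2 null cells and 7.04 and 6.62 in control cells (0.83 ± 0.261, adjusted p = 0.178), and Bst2 9.90 and 9.16 in Ezh2 null cells and 9.33 and 9.66 in control cells (0.04 ± 0.267, adjusted p = 0.964). Rrm2 differed by 0.27 (adjusted p = 0.569) and Birc5 by 0.27 (adjusted p = 0.428). The rescue fit called fewer genes in all, and the difference between the experiments was not tested. Of the 145 developmental transcription factor genes 16 were higher and 0 lower in Ezh2 null cells, and of the 32 cartilage and tendon genes 6 were lower and 0 higher.

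**Figure D5:**
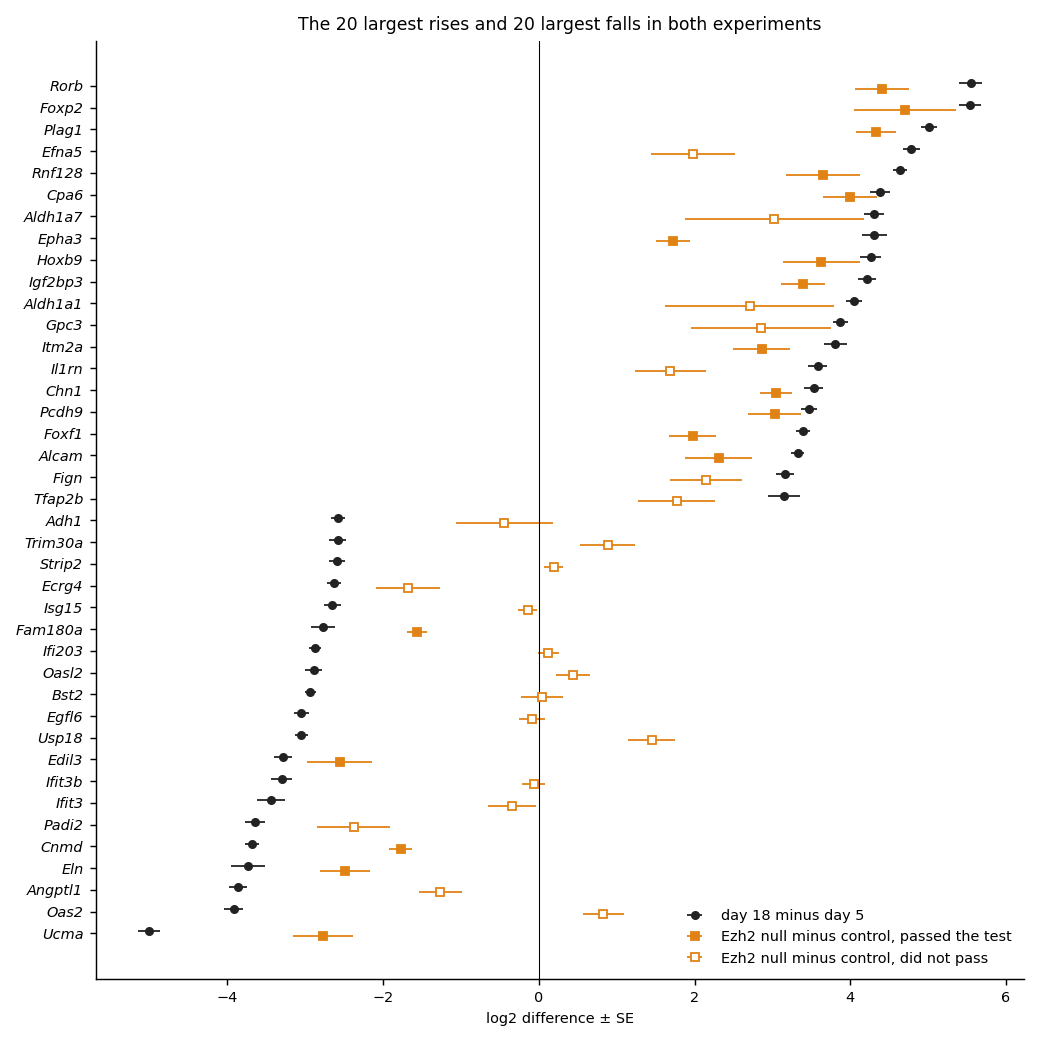
Log2 difference ± standard error (x axis) of the 20 largest rises and 20 largest falls (y axis), as day 18 minus day 5 (black circles) and as Ezh2 null minus control cells in the rescue experiment (orange squares, filled where the gene passed the test). The squares of the risers all lie right of 0 and 13 of 20 are filled, while those of Ifit3 (−0.35) and Oas2 (0.83) lie near or right of 0 and those of Ucma (−2.77) and Eln (−2.49) to its left.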

How the data were processed

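Total RNA of clone C2 was hybridized to Affymetrix Mouse Gene 1.1 ST arrays. The authors deposited log2 values after RMA (oligo, in R), normalized separately for the time course and the rescue experiment. RMA compresses changes near background. The methods state that the rescue values were also corrected for a difference between first and second replicates, and the block below was kept on those values. Probe sets were named from the platform annotation, 21217 of 28440 with 1 symbol, 1881 with several and 5342 with none, and each gene took its probe set of highest mean, which left 18820 genes. In 11 of the 1386 genes with more than 1 probe set, probe sets passed in opposite directions. Differences were fitted with limma 3.58.1 (R 4.3.3) over all 8 arrays of the time course, and over the 10 rescue arrays with the replicate number as a block, with Benjamini-Hochberg adjustment at 0.05 and a call at 2-fold. The scripts were tested on simulated data. The methods used rank products at an adjusted p of 15%, and that program was not run. Named genes are Ezh2, Ezh1, Cpa6, Cdkn2a and Cdkn1a, the 20 largest rises and falls, and up to 5 members per list with the smallest p, without predicted genes and small RNAs. The members, lists and rules were chosen with earlier results of these data known. Same-numbered arrays of the time course did not deviate together (r between −0.07 and 0.06). Promoter and microRNA sequences are from RefSeq, build GRCm38.p6.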

Additional observations from a re-analysis of the deposited data

Results flagged for a closer look

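Groups of 2 arrays are too small for a search for outlying samples. Probe sets with several gene symbols or none, 7223 in all, entered no comparison above. Fitted in the same way, 68 of them (0.941%) were called higher at day 18 than at day 5 and 110 (1.52%) lower, with differences between −3.44 and 5.06.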

How the results depend on the processing

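The 494 and 384 calls were 481 to 494 and 370 to 391 under the 8 alternatives to the fit, its normalization, probe set rule, filter and threshold, and 492 to 505 and 372 to 400 when 1 of the 4 arrays was left out. With the replicate block they were 494 and 384, and the same genes; without pairing in the rescue fit (no replicate block) the 2-fold counts of 118 higher and 40 lower in Ezh2 null cells became 141 and 49, and the shared counts 137 and 51. At the threshold of the methods the shared counts were 194 and 75, against 113 and 41. Leaving out 1 rescue array gave 99 to 194 higher and 24 to 118 lower, with shared counts of 78 to 134 and 22 to 91 (alternatives for shared counts were added after the data were seen). The median of the germline and testis list, 0.0003, was −0.0092 with median centring and between −0.0457 and 0.0125 without 1 array. Over named genes and alternatives, a call was lost in 10 of the pairs of a gene and an alternative, and in 28 of those that left out 1 array, all of them of Cdkn2a, Cbx7, Acacb, Elovl6, Lpin1, Hsp90b1, Herpud1, Ptger4 or Hpgd. List medians moved by more than the replicate spread in 19 and 17 such pairs, among them those of the p53 (−0.2024), growth factor (−0.3625) and PRC2 (0.167) lists given above. With 2 arrays per group, 1 clone and no detection calls, small differences and levels near the floor are the least certain.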
